A study of Mus musculus with 30 samples.

Results

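The expression of 35 genes that mark microglia and the macrophages of the brain's borders was followed in the whole brains of Arid1b+/- mice. The members were a named list of microglia, complement and border macrophage genes, and 35 of 35 were among the 19737 genes of the normalized count table. Arid1b+/- (HT) mice carried a truncating mutation in exon 5 of 1 copy of Arid1b, made with CRISPR/Cas9, and were compared with wild-type (WT) littermates. Arid1b encodes a subunit of the BAF chromatin remodelling complex. All libraries came from male mice on a C57BL/6N background, 1 mouse per library by the study's methods. There were 5 HT and 5 WT libraries at postnatal day 10 (P10), from mice without drug or vehicle. At P120 there were 5 libraries each of HT-Flx, WT-Flx, HT-Veh and WT-Veh. Flx mice had taken fluoxetine, a serotonin reuptake inhibitor, through the milk from P3 to P21, from dams whose drinking water held 0.2% saccharin with 0.1 mg/ml of the drug. Veh mice had dams given the saccharin alone. The mutation was a germline one, carried by all cells of the brain and not by microglia alone.

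Microglia are the resident macrophages of the brain parenchyma. They enter the brain in the embryo, depend on signalling through the receptor Csf1r, and survey the tissue through receptors for nucleotides (P2ry12, P2ry13) and for the neuronal chemokine fractalkine (Cx3cr1). They make most of the brain's C1q, the first component of the classical complement pathway, which tags synapses and debris that are then engulfed. Border macrophages of the meninges, perivascular spaces and choroid plexus share many of these genes and in addition express Mrc1, Pf4 and Cd163. In whole brain RNA, fewer cells of a type and less RNA per cell cannot be told apart.

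Promoter sequences are shown for 4 members that rose between P10 and P120 in both genotypes and for the 1 that fell most, because age was the comparison in which members moved the same way in both genotypes. The sequences are RefSeq windows of 250 bases before a transcription start on GRCm38.p6, that of Mrc1 shortened to the 228 bases before the annotated transcript. Capitals mark GAGGAA, or TTCCTC where it lies on the other strand, the core of the box bound by the myeloid transcription factor PU.1, the product of the member Spi1. Trem2 at chr17:48346151-48346400 (plus strand), Ctss at chr3:95526536-95526785 (plus strand), C1qb at chr4:136886201-136886450 (minus strand), Itgam at chr7:128062390-128062639 (plus strand) and Mrc1 at chr2:14229164-14229391 (plus strand) read as follows, 5′ to 3′.
Trem2: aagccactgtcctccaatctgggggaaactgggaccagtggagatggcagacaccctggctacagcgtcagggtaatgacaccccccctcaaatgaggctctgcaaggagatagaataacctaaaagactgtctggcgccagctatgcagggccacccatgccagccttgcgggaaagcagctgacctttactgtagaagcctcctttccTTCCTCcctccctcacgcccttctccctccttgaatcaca
Ctss: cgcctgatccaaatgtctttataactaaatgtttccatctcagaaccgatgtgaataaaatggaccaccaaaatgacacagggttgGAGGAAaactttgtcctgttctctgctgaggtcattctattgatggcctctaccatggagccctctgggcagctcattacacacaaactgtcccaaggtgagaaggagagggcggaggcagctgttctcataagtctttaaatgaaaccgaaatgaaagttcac
C1qb: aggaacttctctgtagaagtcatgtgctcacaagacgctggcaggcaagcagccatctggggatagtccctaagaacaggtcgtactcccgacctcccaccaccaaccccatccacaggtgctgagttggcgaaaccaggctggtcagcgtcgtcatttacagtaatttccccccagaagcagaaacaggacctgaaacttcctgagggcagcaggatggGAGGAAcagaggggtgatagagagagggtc
Itgam: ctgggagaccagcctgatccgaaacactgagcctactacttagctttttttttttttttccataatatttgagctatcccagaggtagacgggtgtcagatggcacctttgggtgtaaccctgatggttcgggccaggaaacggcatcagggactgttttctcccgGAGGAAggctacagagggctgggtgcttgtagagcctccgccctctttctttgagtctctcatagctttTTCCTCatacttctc
Mrc1: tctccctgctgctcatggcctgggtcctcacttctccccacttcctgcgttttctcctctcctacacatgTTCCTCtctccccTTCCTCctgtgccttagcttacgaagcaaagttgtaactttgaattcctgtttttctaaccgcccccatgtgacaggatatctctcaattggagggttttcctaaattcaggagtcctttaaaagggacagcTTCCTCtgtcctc

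A window was found for 28 of the 35 members, and those of Csf1r, C1qa, Gpr34, Tmem119, Selplg, Spi1 and Tyrobp were not used here. The 6 letters occurred on either strand in at least 1 window of 16 of the 28 members. Each window printed above holds them, while the windows of Lyz2 and Irf8, which also rose in both genotypes, hold none. Counted by window, 17 of the members' 33 windows held them (51.5%), against 23.3% of all 32851 windows of the same length. These are letter matches in a window and not binding sites.

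The targeted gene was read in every library first. At P10, Arid1b read 2162, 2334, 2246, 2248 and 2180 normalized counts in HT and 3271, 3281, 3292, 3309 and 3164 in WT. At P120 it read 2164, 2554, 2171, 2616 and 2356 in HT-Flx, 3392, 3305, 3166, 2961 and 2963 in WT-Flx, 3171, 2320, 3036, 3224 and 3229 in WT-Veh and 2342, 3361, 1973, 2480 and 2227 in HT-Veh. Replicate 2 of HT-Veh and replicate 2 of WT-Veh each sat at the level of the other genotype. They were kept under their labels in the other comparisons, while HT-Veh was set against WT-Veh without them, as the study's own gene table for this comparison does, although a figure legend counts all of them. The libraries also differed in how their values related to the GC content of the transcripts. The correlation across genes of a library's deviation from the mean of its age with transcript GC content lay between 0.395 and 0.641 in the 5 HT-Flx libraries and between -0.593 and -0.437 in the 5 WT-Flx libraries. It was positive in HT-Veh replicates 1, 2 and 3, negative in HT-Veh replicates 4 and 5, and of both signs in WT-Veh. Among the P10 libraries the farthest from 0 was HT replicate 1, at -0.255. At P10 the log2 fold changes of HT against WT correlated with transcript GC content at r = -0.598 across the 35 members and -0.1785 across all genes. Results are therefore also given from values corrected, library by library, for transcript GC content and length, with which no member was called at P10 either.

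All 35 members were read above 0 in all 30 libraries, defining microglial genes such as Csf1r, Cx3cr1 and P2ry12 among them. The 7 measured markers of neutrophils and monocytes summed to a mean of 29.96 normalized counts in HT and 35.4 in WT at P10, and to 77.0 in WT-Veh, 68.1 in WT-Flx, 156 in HT-Flx and 234 in HT-Veh. The 4 measured lymphocyte markers summed to group means between 286 (WT-Veh) and 384 (WT-Flx), mostly from Trbc2 and Cd4, and the part of these cells in the members' values was not tested. The 35 members together summed to 12975 ± 1284 (SD, n = 5) in WT and 12790 ± 377 in HT at P10, and to 17047 ± 2181 in WT-Veh and 19162 ± 3230 in HT-Veh.

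Levels were compared between genes per kilobase of transcript. In WT-Veh the 3 chains of C1q and the lysosomal protease Ctss were the highest members, C1qa at 1123 normalized counts per kilobase, C1qb at 1098, C1qc at 863 and Ctss at 849. Csf1r followed at 615, the adaptor Tyrobp at 450.1 and Laptm5, a lysosomal membrane protein of haematopoietic cells, at 428. At the other end of the order stood the cytokine Il1a at 3.10, the receptor C3ar1 at 8.42, the complement protein C3 at 12.8, and Ptprc and Cd163, both at 13.9. The genes of the C1q chains lie side by side on the minus strand of chromosome 4 (GRCm38), C1qb at chr4:136880129-136886187, C1qc at chr4:136889804-136893065 and C1qa at chr4:136895917-136898803.

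The order at P10 began with the same 3 genes at closer levels. In WT at P10, C1qb stood at 527 normalized counts per kilobase, C1qa at 524 and C1qc at 517, which did not differ beyond the spread of the libraries. Csf1r stood at 457, Ctss at 365 and P2ry12 at 352. P2ry12 held rank 6 of the 35 members at P10 and rank 10 in WT-Veh, where it stood at 266. Selplg, a mucin-like selectin ligand carried by microglia, moved the other way, from 163 to 361 normalized counts per kilobase.

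**Figure D1:**
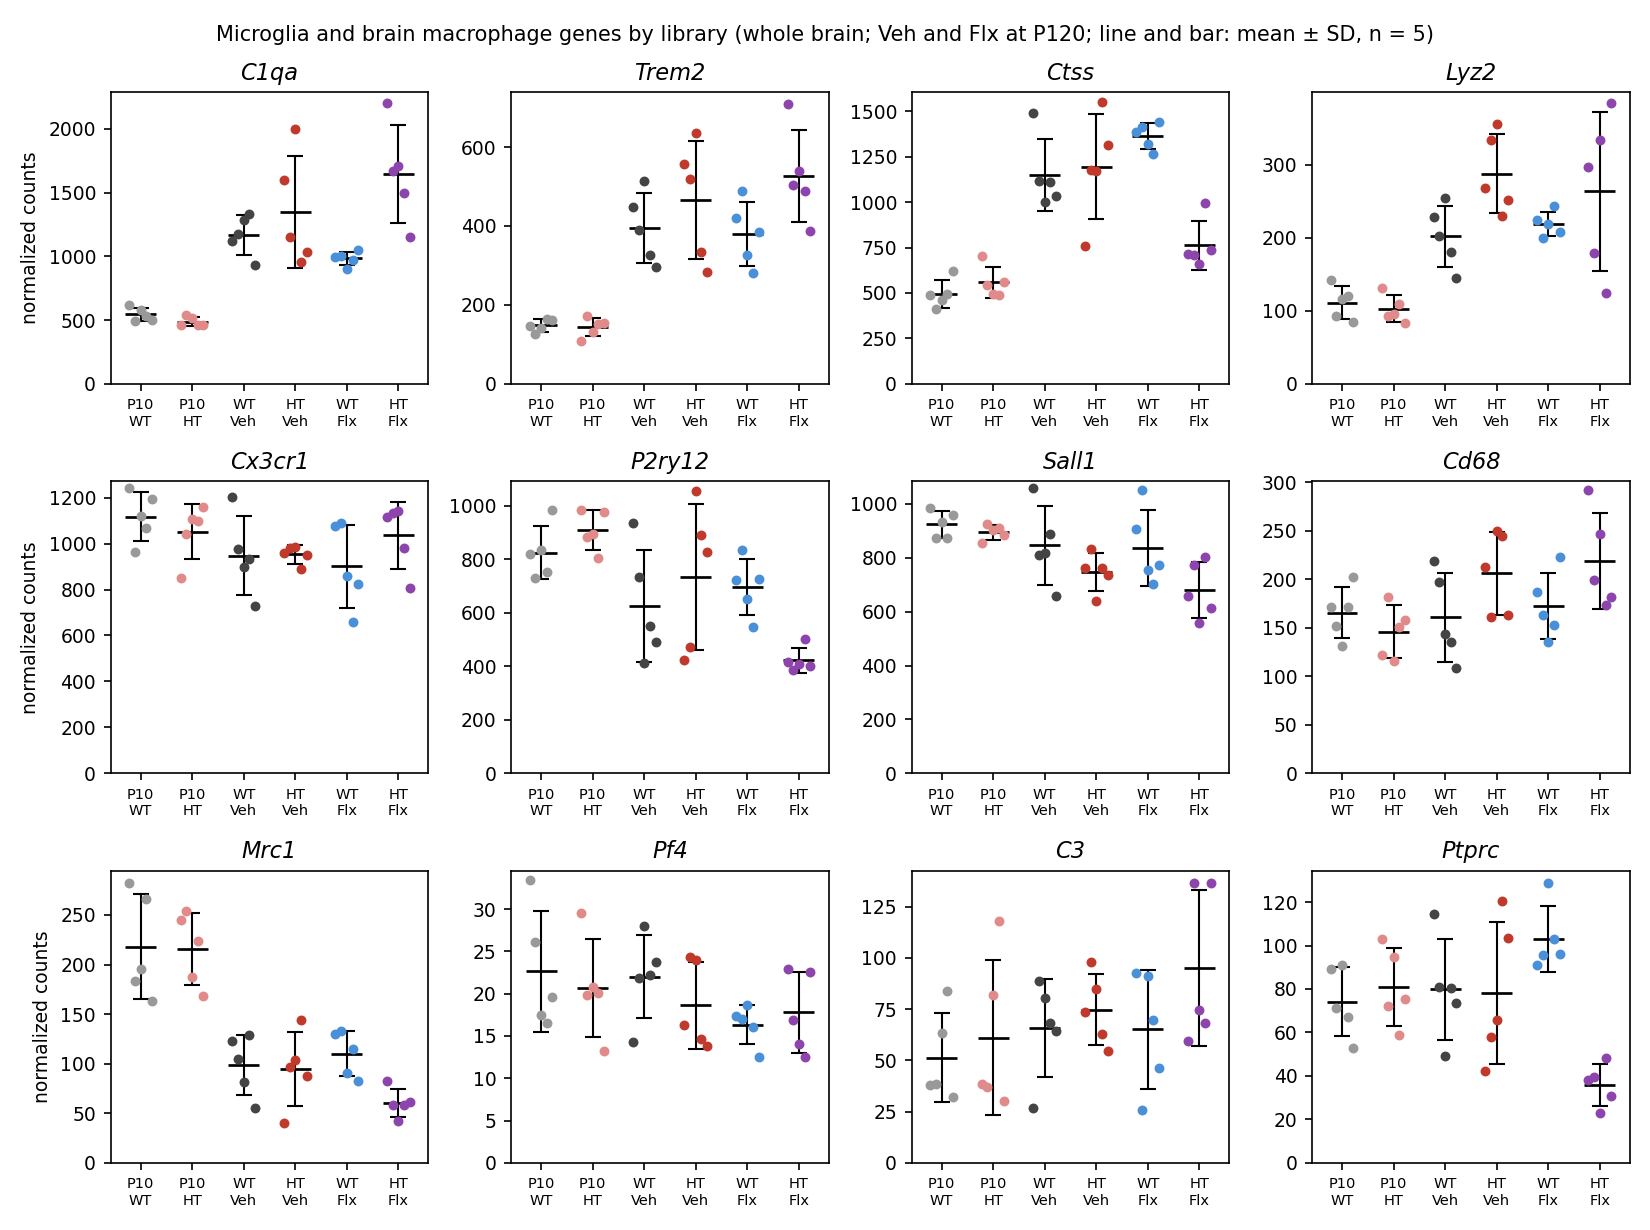
Normalized counts (linear vertical axes from 0) of 12 members in the 6 groups, with 1 point per library and the mean ± SD (n = 5) as a line with bars. C1qa and Trem2 sit higher in every P120 group than at P10, Mrc1 sits lower, and Cx3cr1 overlaps across all groups.

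The first comparison asked how these genes changed between P10 and P120 within a genotype. Complement C1q, Trem2, the lysosomal genes Ctss and Lyz2, Selplg, Tmem119 and Irf8 rose in both genotypes, and the mannose receptor Mrc1 fell in both. In WT, 14 members rose and 4 fell among the 34 tested, where 58.3% of 17927 genes were called, 28.9% higher and 29.4% lower. In HT, 15 rose and 3 fell among 35, where 51.1% of 17989 genes were called, 25.8% higher and 25.3% lower. The same 13 members rose in both genotypes and the same 2 fell. The members' median log2 fold change was 0.10 in WT and 0.46 in HT, against -0.01 and -0.02 over all genes tested. P10 mice had no vehicle and P120 vehicle mice had saccharin through the milk, so age, vehicle and the set of libraries cannot be told apart.

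The C1q genes and Itgam rose in both genotypes. C1qa read 619, 496, 576, 529.7 and 502 normalized counts in WT at P10 and 1123, 1171, 1281, 1330 and 932 in WT-Veh. In HT it read 462, 536, 516, 461 and 458 at P10 and 1599, 1155, 1998, 955 and 1036 in HT-Veh. All vehicle libraries lay above all P10 libraries, with HT-Veh replicates 1 and 3 the highest. The log2 fold change was 1.09 ± 0.10 (SE) in WT, a 2.13-fold rise (adjusted p = 1.47e-06), and 1.42 ± 0.18 in HT, a 2.67-fold rise (adjusted p = 4.11e-05). C1qb rose by 1.05 ± 0.10 in WT and 1.42 ± 0.17 in HT on the log2 scale, and C1qc by 0.74 ± 0.10 and 0.96 ± 0.14. Itgam, the alpha chain of the integrin that binds complement-tagged material, rose by 0.69 ± 0.094 and 0.77 ± 0.11. For these 4 genes the vehicle and P10 libraries of a genotype did not overlap. Of all members, 10 lay wholly higher and 2 wholly lower in vehicle WT and 14 and 2 in vehicle HT, where 45.6% and 40.2% of all genes did not overlap.

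The central component C3 and its receptor C3ar1 did not pass the test in either genotype. C3 read 38.1, 38.6, 63.3, 83.7 and 32.2 normalized counts in WT and 38.3, 36.8, 81.9, 118 and 30.2 in HT at P10, and 26.9, 88.8, 80.6, 68.1 and 64.4 in WT-Veh and 73.7, 97.9, 84.9, 62.8 and 54.3 in HT-Veh. The ages overlapped, and the highest P10 library, an HT one, stood above every vehicle library. The log2 fold change of C3 was 0.34 ± 0.33 in WT (adjusted p = 0.393) and 0.46 ± 0.34 in HT (adjusted p = 0.274). That of C3ar1 was 0.03 ± 0.27 and 0.10 ± 0.20 (adjusted p = 0.926 and 0.691).

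Trem2, a receptor for lipids and apolipoproteins that signals through Tyrobp, rose more than any other member. It read 146, 126, 142, 165 and 161 normalized counts in WT at P10 and 447, 389, 513, 325 and 297 in WT-Veh. In HT it read 109, 171, 132, 152 and 153 at P10 and 557, 519, 634, 335 and 284 in HT-Veh. No vehicle library fell to the level of a P10 library in either genotype. The rise was 2.61-fold in WT (log2 1.39 ± 0.15, adjusted p = 4.48e-06) and 3.12-fold in HT (log2 1.64 ± 0.22, adjusted p = 5.02e-05). Its partner Tyrobp rose less, by 0.50 ± 0.14 in WT and 0.76 ± 0.16 in HT on the log2 scale. Laptm5 rose by 0.49 ± 0.14 and 0.66 ± 0.17. Ly86, which pairs with a Toll-like receptor relative on the cell surface, rose by 0.44 ± 0.14 in WT (adjusted p = 0.0127) and had a log2 fold change of 0.59 ± 0.24 in HT (adjusted p = 0.0543). Fcer1g and Fcgr3, an Fc receptor chain and an Fc receptor, and the leukocyte phosphatase Ptprc had log2 fold changes between -0.13 and 0.26 and did not pass the test in either genotype.

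Ctss and Lyz2 rose in both genotypes, and Cd68 rose in HT. Ctss, cathepsin S, read 490.1, 412, 459, 493 and 619.6 normalized counts in WT at P10 and 1492, 1119, 999, 1109 and 1035 in WT-Veh, and rose by 1.21 ± 0.12 on the log2 scale (adjusted p = 3.27e-06). In HT it read 703, 544, 496, 491 and 562 at P10 and 757, 1176, 1171, 1550 and 1317 in HT-Veh, a rise of 1.07 ± 0.17 (adjusted p = 2.72e-04). The ages did not overlap in either genotype, although HT-Veh replicate 1 came close to the highest P10 library.

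Lyz2, lysozyme, read 142, 93.5, 117, 119.7 and 84.8 normalized counts in WT at P10 and 228, 203, 254, 180.2 and 145 in WT-Veh. In HT it read 132, 93.1, 95.5, 109.6 and 83.5 at P10 and 268, 334, 356, 229 and 252 in HT-Veh. The ages did not overlap within either genotype, and the lowest HT-Veh library was above 4 of the 5 WT-Veh libraries in this gene. That count includes both replicate 2 vehicle libraries, whose Arid1b sat at the level of the other genotype. Lyz2 rose by 0.85 ± 0.17 in WT and by 1.48 ± 0.17 in HT on the log2 scale (adjusted p = 0.001 and 1.35e-05). Neutrophils and monocytes also express Lyz2, and their marker S100a9 rose by 1.66 ± 0.55 in WT. The part of these cells in the change of Lyz2 was not tested. Ly6g and Retnlg, which define neutrophils, were not analysed here.

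Cd68, a lysosomal protein raised in phagocytosing macrophages, read 172, 152, 131, 171 and 202 normalized counts in WT and 122, 182, 116, 151 and 158 in HT at P10. At P120 it read 219, 197, 143, 135 and 109 in WT-Veh and 213, 162, 249.8, 245 and 163 in HT-Veh. The ages overlapped in both genotypes. The log2 fold change was -0.07 ± 0.19 in WT (adjusted p = 0.755), and in HT Cd68 rose by 0.49 ± 0.18 (adjusted p = 0.0322), a call kept in 4 of the 10 fits that left out 1 library. Aif1, the cytoskeletal protein used to stain microglia, had log2 fold changes of 0.07 ± 0.18 in WT and 0.42 ± 0.23 in HT and did not pass the test.

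Surface receptors moved in both directions. Cx3cr1 read 1241, 965, 1120, 1069 and 1193 normalized counts in WT and 851, 1042, 1107, 1099 and 1160 in HT at P10, and 1203, 976, 898, 931 and 729 in WT-Veh and 958, 982, 986, 888 and 948 in HT-Veh. Its groups overlapped, and its log2 fold change was -0.25 ± 0.12 in WT (adjusted p = 0.082) and -0.14 ± 0.11 in HT (adjusted p = 0.304). Selplg rose by 1.15 ± 0.13 in WT and 1.35 ± 0.14 in HT, Tmem119, a membrane protein specific to parenchymal microglia within the brain, by 0.81 ± 0.13 and 1.099 ± 0.21, and Csf1r by 0.43 ± 0.14 and 0.58 ± 0.15. Cd33, a sialic acid receptor that restrains microglial uptake, fell by 0.74 ± 0.22 in WT and fell by 0.98 ± 0.24 in HT (adjusted p = 0.0103 and 0.00417). Fcrls, an Fc receptor-like protein of microglia, fell by 0.61 ± 0.13 in WT (adjusted p = 0.0012) and had a log2 fold change of -0.23 ± 0.13 in HT (adjusted p = 0.17). Gpr34, a receptor for lysophosphatidylserine, rose by 0.69 ± 0.23 in HT (adjusted p = 0.0233) and had 0.34 ± 0.17 in WT (adjusted p = 0.0956). Siglech, Olfml3 and P2ry13 did not pass the test in either genotype, at -0.28 to 0.14.

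P2ry12, the receptor through which microglial processes move towards ATP, read 821, 730.3, 836, 752 and 983 normalized counts in WT and 984, 883, 892, 804 and 976 in HT at P10. At P120 it read 934, 733, 412, 549 and 491 in WT-Veh and 422, 473, 1056, 889 and 825 in HT-Veh. The vehicle libraries spanned a wider range than the P10 libraries in both genotypes, with HT-Veh replicates 1 and 2 and WT-Veh replicates 3 and 5 the lowest. P2ry12 fell by 0.46 ± 0.18 on the log2 scale in WT (adjusted p = 0.0488), a call kept in 2 of the 10 fits that left out 1 library, and had -0.39 ± 0.23 in HT (adjusted p = 0.158). After the correction for GC content and length the values were -0.18 and -0.03, with adjusted p = 0.318 and 0.851.

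Of the 3 transcription factors, Irf8 rose in both genotypes, by 0.86 ± 0.20 in WT and 0.94 ± 0.21 in HT (adjusted p = 0.00215 and 0.00238). Sall1, which maintains microglial identity, read 984, 874, 934, 872 and 959.5 normalized counts in WT and 854, 924, 901, 909.6 and 884 in HT at P10, and 1058, 809.7, 817, 889.6 and 657 in WT-Veh and 763, 832, 638, 761 and 736 in HT-Veh. The ages overlapped in WT and not in HT. Its log2 fold change was -0.14 ± 0.11 in WT (adjusted p = 0.271), and it fell by 0.27 ± 0.10 in HT (adjusted p = 0.0399, kept in 3 of the 10 fits that left out 1 library). Spi1 had log2 fold changes of -0.02 ± 0.14 in WT and 0.58 ± 0.26 in HT and did not pass the test.

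Mrc1 was the member that fell most in both genotypes. It read 282, 183, 196, 266 and 163 normalized counts in WT at P10 and 123, 105, 81.4, 129 and 55.4 in WT-Veh. In HT it read 245, 254, 187, 224 and 169 at P10 and 39.8, 96.5, 104, 144 and 87.7 in HT-Veh. All vehicle libraries lay below all P10 libraries. It fell by 1.17 ± 0.23 in WT (adjusted p = 7.48e-04) and fell by 1.28 ± 0.28 in HT (adjusted p = 0.00196) on the log2 scale. The chemokine Pf4 read 33.5, 26.1, 17.5, 16.5 and 19.6 in WT and 29.5, 19.8, 20.9, 20.1 and 13.2 in HT at P10, and 14.3, 21.9, 28.03, 22.2 and 23.8 in WT-Veh and 16.3, 24.4, 24.0, 14.7 and 13.8 in HT-Veh. Its libraries overlapped between ages, with log2 fold changes of -0.02 ± 0.25 and -0.14 ± 0.27. Cd163, the haemoglobin scavenger receptor, had 0.12 ± 0.25 and 0.06 ± 0.18, so that of the 3 border macrophage members Mrc1 alone passed the test. Il1a was below the minimum mean of 10 in the WT comparison and had 0.03 ± 0.40 in HT.

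The correction for GC content and length changed some of these calls. With it, 14 members rose and 2 fell in WT (59.4% of genes called) and 18 rose and 3 fell in HT (56.2% called). Tmem119, Selplg, Irf8, C1qa, C1qb, C1qc, Itgam, Trem2, Laptm5, Ctss, Lyz2 and Mrc1 held the same call in both genotypes with and without it. In WT the calls of Csf1r, Tyrobp, Cd33 and P2ry12 were lost, while Gpr34 (0.58, adjusted p = 0.00737) and Ptprc (0.47, adjusted p = 0.033) were gained. In HT that of Cd68 was lost, while Siglech (0.43), C3ar1 (0.54), Ptprc (0.47) and Ly86 (0.69) were gained. Across the members, the correlation of the log2 fold change as deposited with transcript GC content was 0.441 in WT (34 genes) and 0.534 in HT (35 genes).

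**Figure D2:**
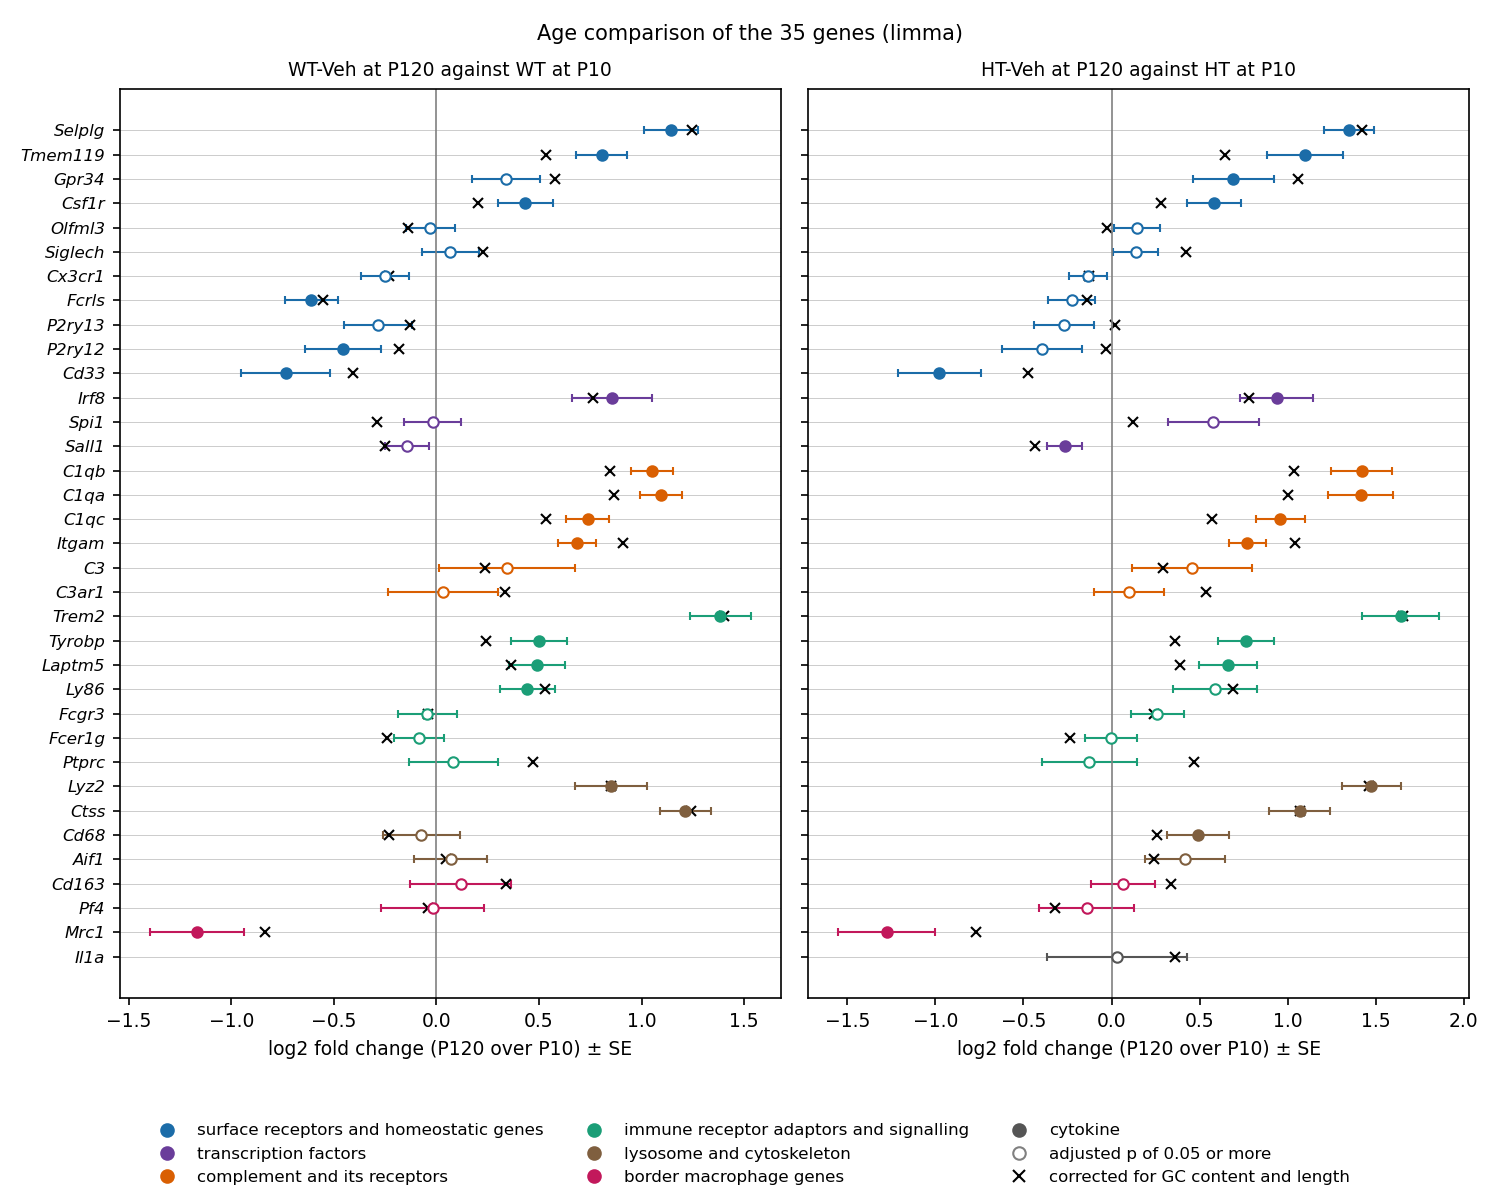
Log2 fold change from P10 to vehicle P120 (horizontal axis, ± SE) of the tested members in WT (left, 34 genes) and HT (right, 35 genes), coloured by role, with called genes filled and crosses for the values corrected for GC content and length. Trem2 is the highest and Mrc1 the lowest in both genotypes.

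Whether the change with age differed between genotypes was tested as an interaction. No member passed the test, as no gene of 17978 did (0%). At an unadjusted p under 0.05 stood 2 members, Lyz2 with a log2 difference of 0.62 ± 0.25 and Cd68 with 0.57 ± 0.27, where 3.4% of all genes did. Il1a had the highest difference, 0.91 ± 0.48, and Cd33 the lowest, -0.24 ± 0.34. Values above 0 were found for 28 of the 35 members, with a median of 0.15 against 0.02 over all genes. The members share their libraries and are not independent, and this fit held both replicate 2 vehicle libraries, so the count is a description.

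At P10, none of the 35 members passed limma's test between HT and WT, where 0.0224% of 17896 genes did. At an unadjusted p under 0.05 stood 1 member, the Fc receptor Fcgr3, with a log2 fold change of -0.22 ± 0.093, where 12.6% of all genes did. The exact permutation test on its values gave p = 0.0397, where the smallest p that 5 against 5 libraries can give is 0.00794. It was also the 1 member under 0.05 by the exact test. The highest member was C3ar1 at 0.23 ± 0.23 and the lowest Spi1 at -0.24 ± 0.14, and the median was -0.02. The values of C1qa, Cx3cr1, P2ry12, Trem2 and Mrc1 listed above overlapped between the genotypes. The summed erythroid markers had a mean of 7124 in HT and 11598 in WT, with the globin gene Hbb-bs called lower (-0.78 ± 0.10, adjusted p = 0.014), and the meningeal markers had a median of 9620 in HT and 11382 in WT, where 1 library stood at 31334, and their part in the members' values was not tested.

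In the vehicle groups at P120, no member passed limma's test between the 4 HT and 4 WT libraries other than replicate 2 (0% of 17784 genes called). Cd68 (0.55 ± 0.24) and Il1a (1.49 ± 0.40) had an unadjusted p under 0.05, and 1.29% of all genes did. Il1a, an early inflammatory cytokine, read 9.08, 25.2, 16.1 and 23.2 normalized counts in HT-Veh against 6.21, 4.40, 6.97 and 4.71 in WT-Veh, replicates 1, 3, 4 and 5. These did not overlap, as in 1.04% of all genes, and the exact permutation test gave p = 0.0286, the smallest that 4 against 4 libraries allow. Each of these WT-Veh values was below the minimum mean of 10, so Il1a entered the test only through HT-Veh, where it was high. The left-out libraries read 5.37 in HT-Veh and 8.35 in WT-Veh and with them the groups overlap. The log2 fold change was above 0 for 29 of the 35 members, with a median of 0.19 against 0.01 over all genes tested, and the lowest was Pf4 at -0.34 ± 0.32. The members share their libraries and are not independent, so this count is a description. Over all 5 libraries the summed members had a median of 17852 in HT-Veh, with 1 library at 24593, and of 17440 in WT-Veh. The summed markers of neutrophils and monocytes had a mean of 234 over the 5 HT-Veh libraries against 77.0 over the 5 of WT-Veh, and their part in these values was not tested.

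Between the fluoxetine groups, HT-Flx and WT-Flx, members moved in both directions. Tmem119, Laptm5, C1qa, C1qb, Selplg, Irf8, Csf1r, Fcrls, Trem2, C1qc and Olfml3 were higher in HT-Flx, and Ptprc, Mrc1, Ctss, P2ry13, P2ry12, Siglech, Cd33 and Fcgr3 were lower. These 11 and 8 calls among 35 members stood where 63.7% of 17799 genes were called, 33.1% higher and 30.5% lower, so the members' share was not above that of all genes. The transcripts of the 11 higher members had a GC content of 48.5 to 59.5% (median 54.5) and those of the 8 lower members 38.6 to 49.2% (median 44). The correlation of log2 fold change with GC content was 0.777 across the members and 0.73 across all genes, which share their libraries and are not independent.

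The C1q genes were among the higher members. C1qa read 2201, 1669, 1712, 1496 and 1151 normalized counts in HT-Flx against 993, 999.9, 902, 973 and 1049 in WT-Flx, groups that did not overlap (log2 fold change 0.71 ± 0.14, adjusted p = 7.60e-04). C1qb read 2201, 1597, 1790, 1520 and 1238 in HT-Flx against 1033, 1006, 939, 1003 and 1267 in WT-Flx (0.65 ± 0.14), and C1qc 1617, 1209, 1499, 1066 and 1112 in HT-Flx against 1036, 935, 915, 911 and 1054 in WT-Flx (0.41 ± 0.12). HT-Flx replicate 1 was the highest library in all 3 genes. C3 read 59.3, 136, 74.5, 68.4 and 137 in HT-Flx against 92.8, 25.9, 91.4, 69.6 and 46.4 in WT-Flx, overlapping groups with a log2 fold change of 0.59 ± 0.36 (adjusted p = 0.168).

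Among surface receptors, Tmem119 read 1310, 991, 1025, 1055 and 737 normalized counts in HT-Flx against 611, 539.8, 502, 504 and 616 in WT-Flx, the highest fold change of all members (log2 0.86 ± 0.14, adjusted p = 1.71e-04). Csf1r read 4554, 3825, 3739, 3185 and 2925 in HT-Flx against 2591, 2534, 2290, 2083 and 2643 in WT-Flx (0.57 ± 0.12). These 2 genes did not overlap between the groups. Selplg read 1432, 1101, 1113, 1075 and 882 in HT-Flx against 768, 791, 619.5, 585 and 898 in WT-Flx (0.61 ± 0.14), with the highest WT-Flx library above the lowest HT-Flx library. Fcrls read 740.4, 582, 772, 381 and 454 in HT-Flx against 414, 468, 356, 298 and 485 in WT-Flx (0.51 ± 0.20), a call kept in 4 of the 10 fits that left out 1 library. Olfml3, a secreted protein of microglia, read 579, 506, 578, 452 and 479.9 in HT-Flx against 476, 410.4, 392.3, 376 and 402 in WT-Flx (0.33 ± 0.10). Both genes had HT-Flx libraries within the range of WT-Flx.

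The nucleotide receptors stood on the other side. P2ry12 read 418, 385, 408, 502 and 399 normalized counts in HT-Flx against 724, 834, 650.4, 547 and 726 in WT-Flx (log2 fold change -0.71 ± 0.12, adjusted p = 2.69e-04). P2ry13 read 143, 145, 174, 109 and 128 in HT-Flx against 288, 296, 227, 180.1 and 244 in WT-Flx (-0.81 ± 0.16). In both genes every HT-Flx library was below every WT-Flx library, as was so in 8 of the 35 members, while 5 lay wholly above, where 48.5% of all genes did not overlap. The sialic acid receptors Siglech, at 183, 142, 178, 177 and 185 in HT-Flx against 267, 353, 283, 226 and 296 in WT-Flx, and Cd33, at 100.2, 121, 94.2, 139 and 96.3 in HT-Flx against 154, 194, 152, 149 and 212 in WT-Flx, had log2 fold changes of -0.71 ± 0.13 and -0.64 ± 0.15. Cx3cr1 read 1116, 1135, 1142, 979 and 806 in HT-Flx against 1076, 1088, 857, 658 and 824 in WT-Flx and overlapped (0.21 ± 0.15, adjusted p = 0.224).

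Ptprc had the lowest fold change of the members. This phosphatase, carried by all nucleated blood cells and by microglia, read 38.0, 39.4, 22.8, 48.1 and 30.6 normalized counts in HT-Flx against 91.0, 95.5, 129, 103 and 96.2 in WT-Flx (log2 -1.53 ± 0.20, adjusted p = 5.76e-05). The groups stood far apart. Laptm5, with a transcript of 56% GC against 39.4% for Ptprc, read 2034, 1679, 1558, 1699 and 1222 in HT-Flx against 972, 940.0, 800.5, 754 and 1098 in WT-Flx and lay higher without overlap (0.84 ± 0.14). Trem2 read 709, 505, 539, 489 and 388 in HT-Flx against 419.7, 489.5, 326, 281 and 385 in WT-Flx (0.47 ± 0.17, adjusted p = 0.0327), a call kept in 5 of the 10 fits that left out 1 library. Fcgr3 read 165, 175, 165, 153 and 177 in HT-Flx against 227, 254, 199.6, 202 and 270.2 in WT-Flx (-0.45 ± 0.12), again without overlap.

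Of Ctss, Cd68 and Lyz2, Ctss alone passed the test. It read 717, 707, 658, 998 and 734 normalized counts in HT-Flx against 1389, 1416, 1319, 1268 and 1441 in WT-Flx, with every HT-Flx library lower (log2 -0.85 ± 0.11, adjusted p = 5.37e-05). Cd68 read 292, 199, 246, 174 and 181 in HT-Flx against 187, 163, 136, 153 and 223 in WT-Flx (0.33 ± 0.17, adjusted p = 0.11). Lyz2 read 297, 179, 334, 124 and 385 in HT-Flx against 224, 199.5, 219, 243 and 208 in WT-Flx (0.16 ± 0.26, adjusted p = 0.617). HT-Flx held both the highest and the lowest library of Lyz2. Aif1 had a log2 fold change of -0.37 ± 0.20 and did not pass the test.

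Irf8 read 333, 232, 228, 259 and 165 normalized counts in HT-Flx against 156, 185, 135, 178 and 142 in WT-Flx (0.58 ± 0.17, adjusted p = 0.0104). Sall1 read 658, 773, 556, 803 and 615 in HT-Flx against 905, 1050, 756, 703 and 772 in WT-Flx, overlapping groups with -0.30 ± 0.13 (adjusted p = 0.0707). Mrc1 read 82.5, 58.2, 42.6, 58.3 and 61.5 in HT-Flx against 130.0, 133, 90.05, 115 and 82.8 in WT-Flx, with every HT-Flx library below every WT-Flx library (-0.86 ± 0.20, adjusted p = 0.00213). Pf4 read 22.9, 16.9, 14.1, 12.5 and 22.6 in HT-Flx against 17.3, 17.0, 18.7, 16.0 and 12.5 in WT-Flx (0.09 ± 0.24), with overlap. The members not named so far, Gpr34, Spi1, C3ar1, Itgam, Tyrobp, Fcer1g, Ly86, Cd163 and Il1a, had log2 fold changes between -1.09 and 0.31 and did not pass the test. Of these, Il1a had a mean of 7.34 normalized counts in HT-Flx and 14.1 in WT-Flx. It passed the minimum mean of 10 only through WT-Flx, where it was high.

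After the correction for GC content and length, 7 members passed the test between HT-Flx and WT-Flx, where 37% of genes did. Gpr34 (0.74), Fcrls (0.68) and Selplg (0.52) were higher in HT-Flx, and Sall1 (-0.67), Ctss (-0.51), Ptprc (-0.50) and Fcgr3 (-0.29) lower. Of these, Fcrls, Selplg, Ctss, Ptprc and Fcgr3 were also called as deposited. The call of C1qa was lost at 0.22 (adjusted p = 0.112), that of Tmem119 at 0.21 (adjusted p = 0.0935), that of Laptm5 at 0.24 (adjusted p = 0.103) and that of Csf1r at 0.03 (adjusted p = 0.863). P2ry12, Cd33, Mrc1, Olfml3 and C1qc changed sign, P2ry12 to 0.07 and Cd33 to 0.22. GC slope and group moved together here without exception among the 10 libraries, so that genotype under fluoxetine and the GC slope of the libraries cannot be told apart.

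**Figure D3:**
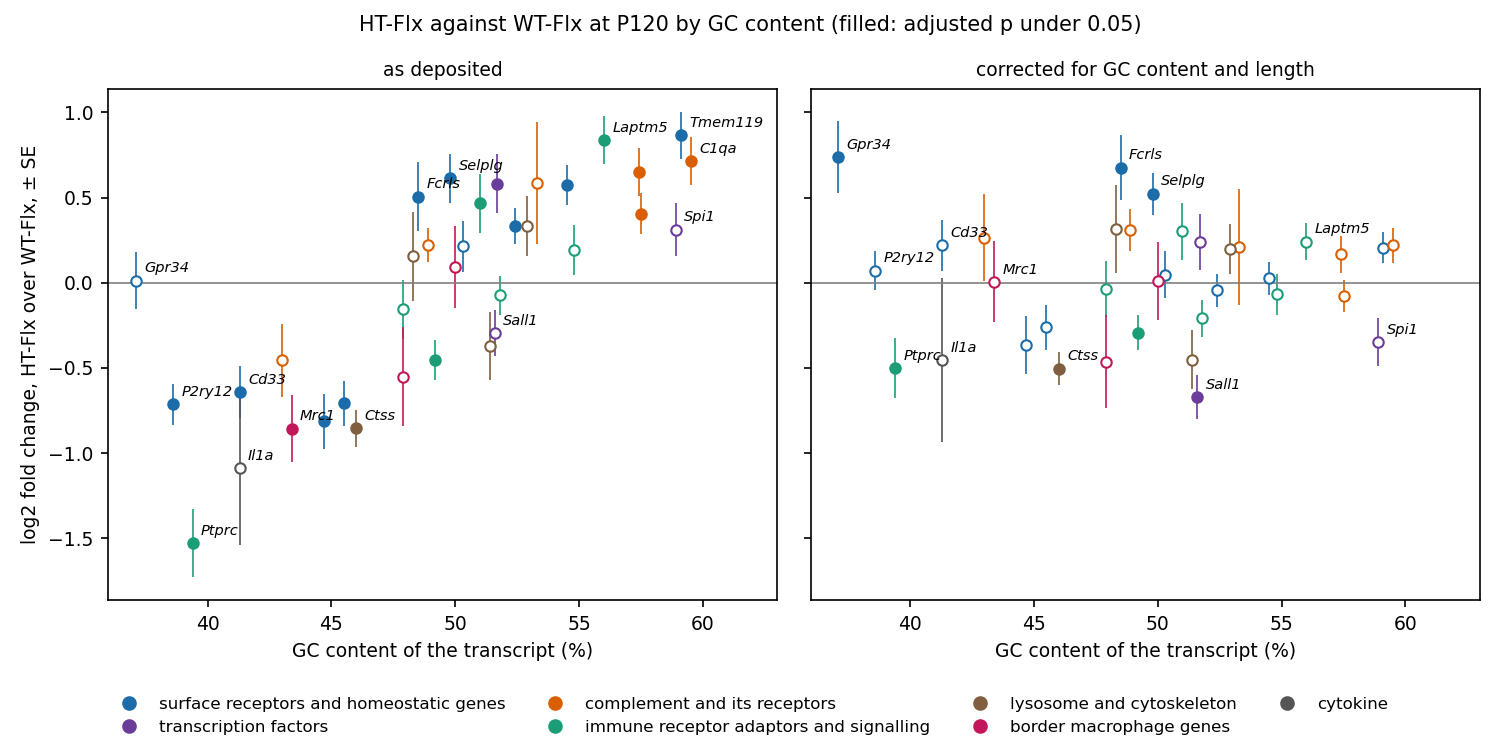
Log2 fold change of HT-Flx against WT-Flx (vertical axis, ± SE) of the 35 members against the GC content of their transcripts (horizontal axis, %), as deposited (left) and after the correction for GC content and length (right), with called genes filled. As deposited, the 8 lower members lie between 38.6 and 49.2% GC and the 11 higher members between 48.5 and 59.5%.

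Fluoxetine was then compared with vehicle within each genotype. In HT, none of the 35 members passed limma's test, as no gene did (0% of 17676). At an unadjusted p under 0.05 stood 7 members, as did 23.1% of all genes, and 7 members had an exact permutation p under 0.05 in a test run on the members alone. P2ry12, P2ry13, Siglech, C3ar1, Fcgr3, Ptprc and Ctss had log2 fold changes of -0.71, -0.59, -0.50, -0.54, -0.45, -1.04 and -0.62. Siglech and C3ar1 lay wholly below HT-Veh, where 0.588% of all genes did, a share of the lower direction alone. C3ar1 did so narrowly, with its highest HT-Flx library at 35.2 and its lowest HT-Veh library at 36.2 normalized counts. The lowest member was Il1a at -1.09 ± 0.54 and the highest Tmem119 at 0.39 ± 0.24. The log2 fold changes of the 35 members correlated with transcript GC content at r = 0.77.

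In WT, none of the 35 passed limma's test either (0% of 17865 genes), and 4 members had an unadjusted p under 0.05, as did 25.2% of all genes. The exact permutation test, run on the members alone, also put 4 under 0.05. Il1a was the highest at 1.08 ± 0.28 and Pf4 the lowest at -0.39 ± 0.22, while Ctss had 0.26 ± 0.10, C1qa -0.24 ± 0.10 and Tmem119 -0.33 ± 0.11. Il1a lay wholly above and Tmem119 wholly below WT-Veh, where 6.41% of all genes did not overlap. Tmem119 did so narrowly, with its highest WT-Flx library at 615.9 and its lowest WT-Veh library at 616.6 normalized counts. Il1a had a mean of 14.1 normalized counts in WT-Flx and 6.13 in WT-Veh, and passed the minimum mean of 10 only through WT-Flx. The correlation of the members' log2 fold changes with transcript GC content was -0.661, of the opposite sign to that in HT. Without WT-Veh replicate 1, which read the highest Ctss of its group (1492), 1 member, Ctss, passed the test. Leaving out 1 library also raised the calls over all genes in this comparison, as given at the end.

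The difference between the 2 fluoxetine effects was tested as an interaction of genotype and fluoxetine, which uses all 20 libraries at P120. It was below 0 for 6 members and above 0 for none at an adjusted p under 0.05, where 27.3% of 17796 genes passed, 15.8% above 0 and 11.5% below. Il1a had -2.17 ± 0.62 on the log2 scale (adjusted p = 0.0347), Ptprc -1.45 ± 0.37, P2ry13 -0.99 ± 0.28, P2ry12 -0.92 ± 0.33, Ctss -0.89 ± 0.22 and Siglech -0.83 ± 0.20. Il1a read 7.01, 15.9, 8.16, 1.49 and 4.19 normalized counts in HT-Flx and 9.08, 5.37, 25.2, 16.1 and 23.2 in HT-Veh, against 11.7, 18.2, 10.3, 12.2 and 18.1 in WT-Flx and 6.21, 8.35, 4.40, 6.97 and 4.71 in WT-Veh. In HT its fluoxetine libraries overlapped the vehicle libraries from below, and in WT they lay wholly above. Its mean was below the minimum of 10 in HT-Flx (7.34) and WT-Veh (6.13). It was tested only through HT-Veh (15.8) and WT-Flx (14.1), the groups where it was high. The highest member was Tmem119 at 0.72 ± 0.28 (adjusted p = 0.0567). All 6 calls were lost with the correction for GC content and length (0% of genes called), and also without the replicate 2 vehicle libraries (0 members), or without any 1 of HT-Flx replicate 1, WT-Flx replicates 2 and 3, HT-Veh replicates 4 and 5, and WT-Veh replicates 2, 3 and 4.

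HT-Flx was also set against WT-Veh, with which the other comparisons share libraries. Of 34 tested members, 5 were higher and 4 lower, where 43.3% of 17681 genes were called, 23.4% higher and 19.9% lower. Laptm5 (0.56 ± 0.16), Tmem119 (0.53 ± 0.15), C1qa (0.47 ± 0.16), C1qb (0.47 ± 0.15) and Selplg (0.42 ± 0.15) were higher in HT-Flx. Ptprc (-1.13 ± 0.25), Mrc1 (-0.66 ± 0.24), Ctss (-0.59 ± 0.14) and P2ry12 (-0.51 ± 0.19) were lower. With the correction for GC content and length no member passed limma's test (10.8% of genes called).

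**Figure D4:**
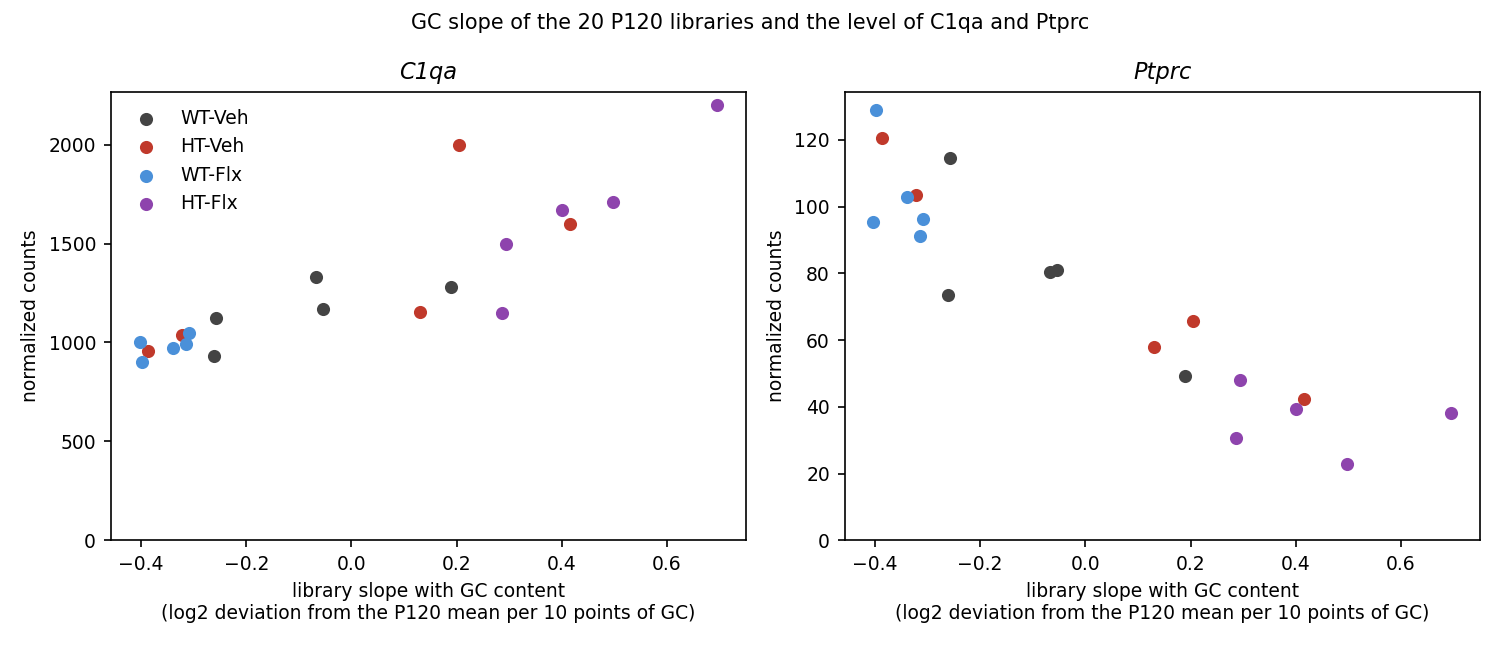
Normalized counts of C1qa and Ptprc (vertical axes) in the 20 libraries at P120 against each library's slope of expression on transcript GC content (horizontal axis, log2 units per 10 percentage points), coloured by group. The 5 HT-Flx libraries lie at slopes of 0.286 to 0.695 and the 5 WT-Flx libraries at -0.403 to -0.309, with C1qa higher and Ptprc lower on the HT-Flx side.

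Genes around the members were read from lists of the same pathways, first in the WT age comparison, against 28.9% higher and 29.4% lower over all genes. Of 14 ligands of microglial receptors, 7 rose and 4 fell, with the lipoprotein Clu (1.03) and the phagocytosis bridge Mfge8 (0.79) the highest and Cd200 (-1.33) and Tgfb2 (-0.91) the lowest. Of 45 further homeostatic microglia genes, 10 rose and 7 fell, from Itgb5 (1.13) and Cst3 (1.07) to Adgrg1 (-0.64) and Mef2c (-1.28). Of 18 other complement genes, 5 rose and 3 fell, with C4b, a component of the classical pathway, at 2.41 and C1ra at 1.21, and the regulators Csmd2 at -0.71 and Cd55 at -0.85. Of 25 genes of activated and postnatal phagocytic microglia, 11 rose and 7 fell, with Gpnmb (2.00) and Cd52 (1.25) the highest and Igf1 (-2.10) and Lpl (-2.01) the lowest. Of 24 other border macrophage genes, 6 rose and 6 fell, with the antigen presentation genes H2-Aa (1.91) and H2-Ab1 (1.29) at the top and Dab2 (-1.11) and Cd36 (-1.13) at the bottom. Several of these genes, Clu, Cst3 and Igf1 among them, are also made by other brain cells.

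Markers of other cells changed with age too, and their part in the members' values was not tested. Meningeal fibroblast markers rose in 1 and fell in 5 of 6, from Slc6a13 (0.67) and Dcn (-0.40) to Col1a2 (-1.61) and Col1a1 (-2.32). Endothelial markers rose in 1 and fell in 6 of 7, from Flt1 (0.55) and Emcn (-0.36) to Cldn5 (-0.59) and Esam (-0.70). Of 6 choroid plexus markers 5 rose, with Kl (2.33) and Kcnj13 (1.71) the highest and Ttr (1.05) and Sostdc1 (0.15) the lowest. Erythroid markers fell in 2 of 5, between Hbb-bt (-0.36), Hba-a2 (-0.44), Alas2 (-0.60) and Hba-a1 (-0.66). Mature oligodendrocyte markers rose in 3 of 6, with Mobp (0.92) and Mag (0.47) above Mog (0.09), and neuronal markers in 4 of 6, with Gad1 (0.85) and Snap25 (0.81) above Syt1 (0.03) and Gad2 (-0.24). Of 5 astrocyte markers 1 rose and 1 fell, Aldh1l1 at 0.21, Slc1a3 at 0.03, Gfap at -0.07 and Aqp4 at -1.46. The lymphocyte marker Trbc2 fell (-1.13) while Cd4 stood at 0.47.

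Between HT-Flx and WT-Flx the same lists held calls in both directions. Among the other complement genes, C4b, C2, Serping1, C1ra, C1qbp and Susd4 were higher and Cd46, Cd55, Csmd1 and Cr1l lower, from 0.71 for C4b to -1.60 for Cd46. Among the ligands, Tgfb1 (1.21), C1ql1, Mfge8, Gas6, Il34, Cx3cl1, Csf1, Apoe and Clu were higher and Tgfb2, Cd200 and Pros1 lower. The homeostatic genes, some of which stand in other lists too, gave 13 calls that were higher (among them Tgfb1, Abi3, Itgb5, Ltc4s, Adgrg1, Bin1, Unc93b1, Slco2b1, Lgmn, Tgfbr2, Plcg2 and Cst3) and 12 that were lower (Cd53 at -1.34, Tlr7, Mef2c, Pros1, Tgfbr1, Arhgap5, Hpgds, Havcr2, Pik3cg, Rnase4, Golm1 and Mertk). Activated and phagocytic genes gave 11 higher (Ctsd at 1.00, Lgals3, Gpnmb, Fabp5, Csf1, Lgals1, Apoe, Ctsb, Axl, Cd63 and Ctsz) and 3 lower (Igf1 at -1.40, Lpl and Cd9). Border macrophage genes gave 12 higher (Clec10a, Siglec1, Cbr2, Ifitm3, Igfbp4, H2-Ab1, Stab1, Gas6, Ifitm2, Blvrb, Cd74 and Apoe) and 4 lower (Cd36, Wwp1, Clec12a and Dab2). The number tested in each list is not given here, so these counts are not shares. Over all genes, 33.1% were higher and 30.5% lower, and log2 fold change correlated with transcript GC content at r = 0.73. Higher ligands had transcripts of 52.5% (Tgfb1) to 65.8% GC (C1ql1), and lower ones 43.4% (Pros1) to 46.9% (Tgfb2). Higher border macrophage genes had 49.9% (Clec10a) to 59.5% (Apoe), and lower ones 38.4% (Cd36) to 45.7% (Dab2). Corrected values are not given for these lists, and the part of GC content in these calls was not tested.

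Markers of other cells passed the test in the same comparison. Higher in HT-Flx were S100a9, Ltf, Alas2, Hba-a1, Hba-a2, Esam, Cldn5, Igf2, Slc6a13, Col1a2, Col1a1, Sostdc1, Folr1, Gfap, Aldh1l1, Mbp, Cnp, Mag, Rbfox3 and Slc17a7. Lower were Tek, Emcn, Dcn, Kcnj13, Aqp4, Gja1, Slc1a3, Gad2, Snap25 and Syt1. Their part in the members' values was not tested. Of all these lists, Hbb-bs alone was called at P10, and no gene was called by limma between the vehicle groups or between fluoxetine and vehicle within a genotype.

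How far the members moved together from library to library was described pair by pair. Over the 10 libraries at P10, the median correlation of 595 pairs of members, taken as deviations from the group means, was 0.195, with 70.9% above 0, and over the 20 libraries at P120 it was 0.247, with 72.4% above 0. C1qa and C1qb gave r = 0.83 at P10 and 0.944 at P120, and C1qa and Csf1r 0.25 and 0.878. C1qa and P2ry12 gave -0.0864 and 0.000819, and Cx3cr1 and P2ry12 0.188 and 0.391. After the correction for GC content and length at P120 the median was 0.339, with C1qa and P2ry12 at 0.56 and Cx3cr1 and P2ry12 at 0.763. Mrc1 and Cd163 gave 0.726 at P10 and 0.204 at P120, and C3 and C1qa 0.0607 and -0.0745. All pairs share libraries, depth and base composition, and these values are descriptions.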

How the data were processed

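Whole brain RNA of 30 mice in 6 groups was read from 1 table of normalized counts, a signal that the authors made and deposited: poly-A reads were quantified with Salmon 1.1.0 against the mouse GRCm38 transcriptome, summed to genes with tximport and divided by the normalization of DESeq2 1.30.1 in R 4.1.1, per the study's methods and, for the versions, the submitters' processing notes, from which the R version of the study's methods differs. The values are not whole reads (2.35 to 5.8% of low values were whole multiples of a common step, tolerance 0.02), so read depth is unknown, no count model was run and no counting interval is given. The values of a library summed to between 31578614 and 41801037, which is not a depth. The spread between mice is the precision available. No column was left unused.

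Ensembl identifiers were matched to symbols for 99.9% of genes. Genes with a mean of at least 10 over the compared libraries were tested on log2(value + 1) with limma 3.58.1 in R 4.3.3 (moderated linear model with an intensity trend), with only the compared groups in the fit, Benjamini-Hochberg adjustment over all genes tested and a threshold of 0.05. Fold changes are on the log2(value + 1) scale, which understates the change of low genes. For single genes an exact two-sided permutation test over the libraries was used. Each p-value sets the tested difference against the spread between these libraries. For the GC correction, genes were placed in 10 bins of transcript GC content and 10 of length, and each library's mean deviation within each of the 100 bins was subtracted, with the transcript of the longest coding sequence from GENCODE on GRCm38. HT-Veh and WT-Veh were compared without replicate 2. Fits were tested on simulated data with 200 changed genes. The simulated spread was drawn gene by gene, without the GC slopes of the real libraries, so calls made under such slopes were not tested.

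The members, the lists and the tests were chosen with earlier results of these data known. Values in every library are given for 10 members set by name and for members called between groups of the same age, with the highest and lowest member of each comparison, the 5 largest changes with age in each direction, and the 2 highest and 2 lowest genes of every other list. Genes beyond this rule were named after their values were seen. A few genes that the rule would name are not reported here. Alternatives were pseudocounts of 0.1 and 5, no filter and a minimum mean of 100, rescaling by median ratios, a replicate block, limma without the trend, the GC correction, all 30 libraries in 1 fit, each library left out in turn, and both replicate 2 vehicle libraries left out. Promoter windows are from RefSeq on GRCm38.p6.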

Additional observations from a re-analysis of the deposited data

Results flagged for a closer look

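In 15 of the 210 sets of 5 libraries (35 members in 6 groups), 1 library stood apart by Dixon's criterion (0.71 of the group's range), where chance gives about 1 in 20. HT-Veh replicate 3 was the highest of its group in Gpr34 (524 normalized counts), Laptm5 (2081) and Ly86 (455). WT-Veh replicate 1 was the highest in Siglech (320), Ly86 (225) and Ctss (1492). HT-Flx replicate 4 was the highest in P2ry12 (502) and Ctss (998), HT-Flx replicate 1 in Aif1 (98.7), and HT-Flx replicate 2 the lowest in Siglech (142). HT-Veh replicate 5 was the highest in Siglech (296), HT-Veh replicate 1 in Itgam (736), WT-Veh replicate 4 in Tyrobp (356) and WT-Flx replicate 5 in C1qb (1267). WT replicate 2 at P10 was the lowest in Cd33 (192).

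The fluoxetine effect differed between genotypes by the interaction test in Il1a (log2 difference -2.17), Ptprc (-1.45), P2ry13 (-0.99), P2ry12 (-0.92), Ctss (-0.89) and Siglech (-0.83), HT minus WT. These 6 members have transcripts of 38.6 to 46% GC, and none kept its call after the correction for GC content and length or without the replicate 2 vehicle libraries. Il1a passed the minimum mean of 10 only through HT-Veh and WT-Flx, where it was high.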

How the results depend on the processing

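The counts of members called are given here where an alternative moved them by over 1.5 times. With the correction for GC content and length, 7 members in place of 19 were called between HT-Flx and WT-Flx, 0 in place of 9 between HT-Flx and WT-Veh, and 0 in place of 6 for the genotype by fluoxetine interaction. In the first of these, Cd33 turned to 0.22, Mrc1 to 0.0052, P2ry12 to 0.071, Olfml3 to -0.045 and C1qc to -0.078 on the log2 scale. With all 30 libraries in 1 fit, 7 members in place of 0 were called between HT-Flx and HT-Veh, 16 between HT-Flx and WT-Veh and 11 for the interaction. Without the replicate 2 vehicle libraries the interaction gave 0, and with the GC correction as well, an alternative chosen after seeing the data, it gave 0 and HT-Flx against WT-Veh gave 0, with P2ry12 at 0.019. The replicate numbers did not pair the libraries: in no comparison were all same-numbered correlations of deviations over 0.1, and the closest, HT-Flx with HT-Veh, had a mean of 0.179 (-0.0177 to 0.407) against -0.0441 for other pairs. The replicate block gave 3 members between HT-Flx and HT-Veh and, together with the GC correction, 5 between HT-Flx and WT-Flx, with the same 5 values turned (0.22, 0.0052, 0.071, -0.045 and -0.078), 3 between HT-Flx and WT-Veh and 0 for the interaction. With 1 library left out, the members called ranged from 17 to 21 for HT-Flx against WT-Flx, 4 to 10 for HT-Flx against WT-Veh, 0 to 11 for the interaction of genotype and fluoxetine, 0 to 1 for fluoxetine in WT, 17 to 21 for age in WT and 15 to 20 for age in HT, and stayed at 0 for HT against WT at P10 and in vehicle, fluoxetine in HT and the interaction with age. The other pseudocounts, filters, rescaling and the fit without the trend kept all member counts within 1.5 times. The cause of these changes was not tested.

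Over all genes, the calls between HT-Flx and WT-Flx went from 11330 to 6581 with the GC correction and 5436 with the block added, those between HT-Flx and WT-Veh from 7651 to 1915, 1860 with the block added and 933 without the replicate 2 vehicle libraries, and those of the interaction from 4852 to 0 under the GC correction or without those libraries and to 7637 in 1 fit. HT-Flx against HT-Veh went from 0 to 1355 with the block, 2 with block and correction and 5948 in 1 fit. HT against WT at P10 went from 4 to 7 with the block, 9 with block and correction and 0 in 1 fit, and the interaction with age from 0 to 2 without the trend. With 1 library left out, HT against WT at P10 reached 8 genes, fluoxetine in WT 1400 and the interaction of genotype and fluoxetine 0 to 7667.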
